A study of Mus musculus with 23 samples.

Results

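Trophic and repair growth factors are secreted or shed proteins that support survival, vessel growth or remodelling of injured tissue. The list examined here names 10 of them: Igf1, Pdgfb, Grn, Tgfb1, Vegfa, Hgf, Bdnf, Osm, Lif and Hbegf. Members were taken by gene symbol from the table of normalized counts, which holds 19945 genes. A row was found for 9 of the 10, and Vegfa is not analysed here. Of these 9, 7 passed the filter on low values (at least 10 normalized counts in at least 5 of the 23 libraries) and were tested among 15268 genes. Bdnf and Lif did not pass it and are described by their values.

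The libraries are bulk RNA-seq of mouse cells labelled as ILC2s, the group 2 innate lymphoid cells, which are tissue lymphocytes that answer IL-33. Donors were male mice aged 8 to 10 weeks, transgenic and wild-type, and every library carries the genotype label B6.Cg-Tg(CAG-GFP)Smoc, in which the broadly active CAG promoter drives GFP. All 4 groups share the same preparation. Donors received IL-33 every 2 days for 7 days, lineage-negative CD25+ cells of bone marrow and spleen were separated with magnetic beads, and these were cultured for 14 days with IL-33, IL-2, IL-15 and IL-7. The culture group (5 libraries) was taken directly from culture. For the other groups, cells sorted as CD45+Lin-ST2+KLRG1+CD127+ were given intravenously 6 h after middle cerebral artery occlusion (MCAO, a stroke model), and 3 groups of 6 libraries each were recovered: blood at day 1, blood at day 5 and brain at day 5. The sort used on recovery, and whether each library is a separate animal, are not given in the sources read, so p-values measure the spread between these libraries, which may be partly technical.

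Growth factors of this kind act through cell-surface receptors. Igf1 signals through Igf1r, Pdgfb through the PDGF receptors, Hgf through Met, Bdnf through Ntrk2, Hbegf through the EGF receptor family, and Osm and Lif through receptors that share Il6st. Tgfb1 is secreted in a latent complex that must be opened before it reaches Tgfbr1 and Tgfbr2, and Grn encodes progranulin, a secreted glycoprotein that Sort1 carries to lysosomes. In the brain, microglia are a known source of Igf1 and progranulin, and neurons of Bdnf.

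The libraries held 11.6 M to 58.1 M reads. Replicates 1 to 3 of each group are batch 1 (12 libraries, 11.6 M to 16.9 M) and the other 11 libraries are batch 2 (27.8 M to 58.1 M), so the deeper batch also has the smaller counting error. Earlier work on these data found 4 libraries apart from their groups, blood on day 1 replicates 2 and 6, brain replicate 2 and culture replicate 5, and member calls that change without them are given with both values. Defining genes of the labelled cell type were checked. Summed over the 12 ILC2 marker genes in the table, the share of all normalized counts was 0.294% to 0.541% in culture, 0.079% to 0.349% in blood on day 1, 0.263% to 0.371% in blood on day 5 and 0.024% to 0.045% in brain. In brain, Gata3 averaged 13.3 normalized counts against 1588 in blood on day 5, Klrg1 averaged 9.40 against 10829, and Ptprc, which encodes CD45, averaged 1595 against 27857. In culture, Il1rl1, which encodes the ST2 of the sort, averaged 1.08 normalized counts, and Il7r, which encodes CD127, averaged 24.5. Over 9 natural killer cell markers the share was 2.13% to 8.34% in culture, 0.277% to 2.31% in blood and at most 0.002% in brain. Most of the 9 did not follow this sum. Against culture, 6 were called higher and 2 lower in blood at each time, with median log2 differences of 10.0 and 10.2. In brain against culture 0 were called higher and 4 lower. Over 15 microglial markers the share was 1.36% to 3.84% in brain and at most 0.150% in any library of the other groups. The brain shares were also the highest of the 4 groups for markers of choroid plexus and ependyma (1.52% to 8.00%), oligodendrocytes (1.02% to 1.61%) and fibroblasts (0.306% to 1.15%). Over 12 platelet markers the share was 0.567% to 6.02% in blood on day 1, 0.229% to 1.76% in blood on day 5, 0.021% to 0.116% in culture and 0.003% to 0.019% in brain. Several other blood cell marker lists were also higher in blood than in culture, but the T cell list took a smaller share there. T cell markers (12 genes) took 0.447% to 1.24% in culture, 0.171% to 0.416% on day 1 and 0.207% to 0.307% on day 5. Of these 12, 4 were called higher and 2 lower on day 1, and 4 higher and 4 lower on day 5. Dendritic markers (11 genes) took 0.352% to 1.67% on day 1 and 0.937% to 2.23% on day 5 against at most 0.029% in culture, and 10 of the 11 were called higher at each time. B cell markers (10 genes) took 0.047% to 0.314% and 0.230% to 0.503% against at most 0.015%, with 8 and 10 called higher. Erythroid markers (5 genes) took 0.381% to 8.49% and 0.281% to 3.76% against at most 0.417%, with all 5 called higher at both times. Neutrophil markers (14 genes) took 0.087% to 0.803% and 0.372% to 3.51% against at most 0.032%, with 12 and 13 called higher. The part of these cells in the growth factor values of blood was not tested. The low ILC2 markers go against the cell label in brain, so that group is called the brain libraries. In culture, the low Il1rl1 and Il7r also go against the label, but the ILC2 list as a whole was mixed. Of its 11 tested genes, 4 were called higher and 2 lower in blood than in culture at each time. The ILC2 share of culture overlapped that of both blood groups. The natural killer share of culture lay above its ILC2 share, though 6 of the 9 natural killer markers were higher in blood. The culture group is likewise named for its source. A difference between groups in these bulk samples cannot separate more cells of a type from more RNA per cell.

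**Figure D1:**
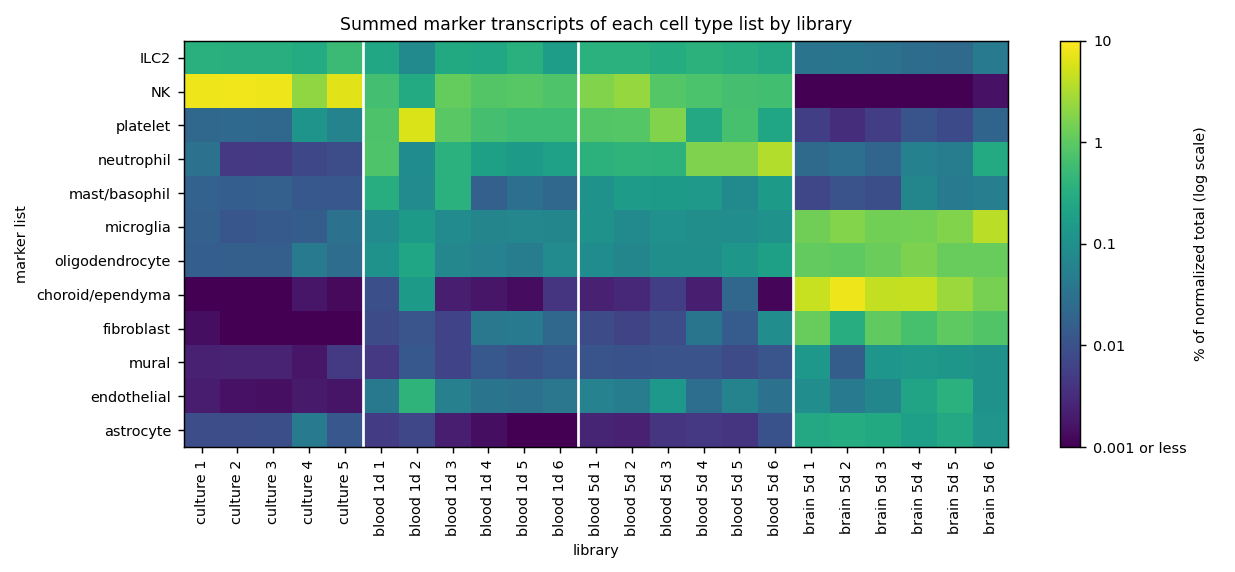
Summed level of the marker genes of 12 cell types (rows) as a percent of the normalized counts of each library (columns), on a logarithmic colour scale. Microglial markers sit at 1.36% to 3.84% in the 6 brain libraries, and ILC2 markers are lowest there, at 0.024% to 0.045%.

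Against culture, the growth factors split. Igf1, Pdgfb and Hgf were higher in all 3 recovered groups, Hbegf was lower in both blood groups, and Grn rose in brain. Of the 7 tested members, 3 rose and 2 fell in blood on day 1, where 32.1% of all tested genes were called (18.1% higher and 14.0% lower). These 5 calls became 3 with only the 2 groups compared, and also with the closest libraries averaged, as the last section sets out. Which members lost their call there is not named below, so the lost calls given for each member are not a full list. Day 5 blood had 3 that rose and 1 that fell, against a background of 31.1% (19.6% higher and 11.4% lower). In brain, 4 rose and 1 fell, against 49.2% (37.5% higher and 11.7% lower). The ranges of the libraries did not overlap for 2 members in blood on day 1 (17.1% of all tested genes), for 4 in blood on day 5 (24.7%) and for 5 in brain (35.6%). The median log2 difference from culture over the tested members was 0.63, 0.21 and 3.62 in blood on day 1, blood on day 5 and brain, and over all tested genes it was 0.04, 0.14 and 0.67. Differences are log2 values from limma on log2(normalized count + 1) with batch in the model, ± standard error, so they understate the change of genes near 0. Adjusted p-values are Benjamini-Hochberg values over all 15268 genes, and a gene was called at an adjusted p under 0.05.

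**Figure D2:**
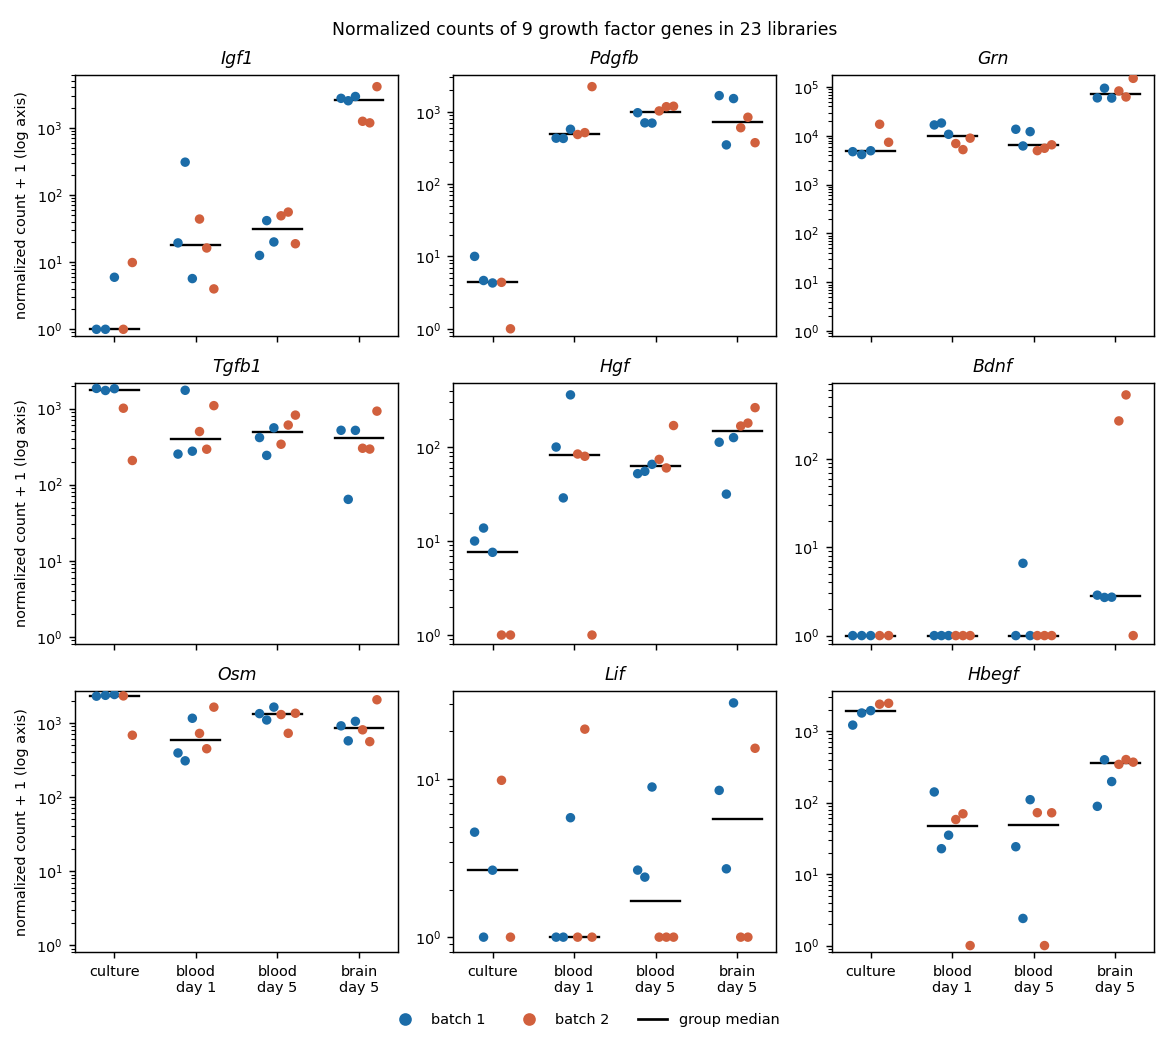
Normalized counts of the 9 growth factors in each of the 23 libraries (log axis of value + 1), a panel for each gene, with lines at the group medians and colours for the 2 batches. Igf1 and Grn are highest in the 6 brain libraries, Pdgfb is near 0 in culture alone, and Hbegf is highest in the 5 culture libraries.

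**Figure D3:**
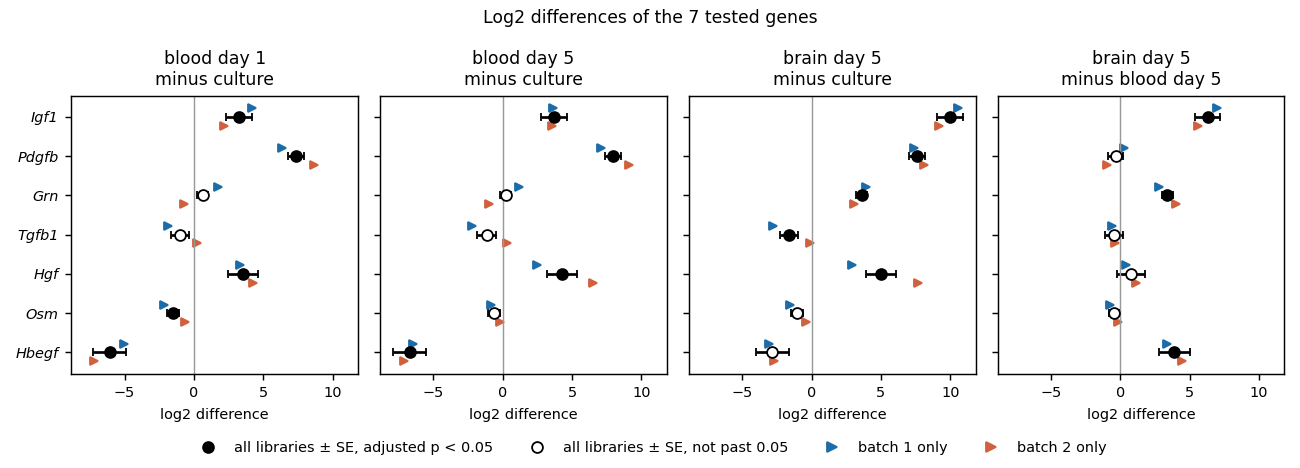
Log2 difference of each tested member against culture in the 3 recovered groups, and in brain against blood on day 5. Circles are the fit of all libraries with bars of ± 1 standard error from limma (filled where the adjusted p is under 0.05), and triangles are each batch alone. Igf1 stands at 9.96 in brain against culture and Hbegf at -6.72 in blood on day 5 against culture.

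Igf1 encodes insulin-like growth factor 1, a survival and growth signal, and lies at mm10 chr10:87858265-87937042 on the plus strand with 8 merged exons. In culture its normalized counts were 0, 0, 4.95, 0 and 8.86. In blood on day 1 they ran from 2.99 through a median of 16.8 to 307, and in blood on day 5 from 11.6 through 29.7 to 54.6. Brain ran from 1182 through 2632 to 4089. All 6 brain libraries lay above every other library, and the 307 of blood on day 1 replicate 2 stood apart from its group, whose next value was 42.8. The log2 difference from culture was 9.96 ± 0.94 in brain (limma adjusted p = 5.41e-09), with 10.55 in batch 1 and 9.18 in batch 2. Brain exceeded blood on day 5 by 6.29 ± 0.89 (adjusted p = 2.95e-06), with 6.96 and 5.62 in the batches, and blood on day 1 by 6.70 ± 0.89 (adjusted p = 1.23e-06). Against culture, blood was also higher, by 3.25 ± 0.94 on day 1 (limma adjusted p = 0.0105) and 3.67 ± 0.94 on day 5 (adjusted p = 0.00406). The day 1 call was lost with a pseudocount of 10 (1.58, adjusted p = 0.0591) and in batch 2 alone (2.17, adjusted p = 0.298), and the ranges of the 2 groups overlap. The day 5 call was lost in each batch alone (limma adjusted p = 0.0664 and 0.0799), with a difference of 3.59 and 3.56. In the same brain libraries the microglial share was 1.36% to 3.84%, with 15 of 15 markers detected, and Igf1 was highest in replicate 6, where that share was 3.84%. The other libraries did not follow that order: replicate 5 had a share of 1.73% and the lowest Igf1 value, 1182, while replicates 1 and 3 had the lowest shares, 1.36% and 1.39%, with 2741 and 2920. The part of such cells in the Igf1 level was not tested.

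Grn lies at chr11:102430315-102437048 on the plus strand with 10 merged exons. Culture held 4737, 4143, 4950, 17293 and 7383 normalized counts, blood on day 1 ran from 5223 through a median of 9860 to 18319, and blood on day 5 from 4978 through 6381 to 13650. The 18319 is that of replicate 2, where Grn was 0.040% of the normalized total, below replicate 1 (0.083%) and replicate 3 (0.054%). Brain ran from 59446 through 72886 to 150778. The lowest brain library was above every library of the other 3 groups, while culture and blood overlapped throughout. Brain exceeded culture by 3.62 ± 0.40 (limma adjusted p = 5.92e-08; 3.92 in batch 1 and 3.03 in batch 2), blood on day 5 by 3.40 ± 0.38 (adjusted p = 8.11e-08; 2.78 and 4.03) and blood on day 1 by 2.99 ± 0.38 (adjusted p = 5.79e-07). The 2 blood groups did not pass against culture, at 0.63 ± 0.40 (limma adjusted p = 0.239) and 0.21 ± 0.40 (adjusted p = 0.749). Their direction differed by batch, 1.69 and 1.14 in batch 1 (adjusted p = 0.00337 and 0.0277 there) and -0.72 and -0.997 in batch 2. The high culture value is that of replicate 4, and without it blood on day 1 passed (1.05, adjusted p = 0.0282). Exons of Grn overlap those of Fam171a2 on the other strand, which averaged 127 normalized counts in brain and at most 1.96 in the other groups, and the strand setting of the counting is not given. As with Igf1, the highest brain library was replicate 6, and the part of microglial RNA was not tested.

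Pdgfb encodes the B chain of platelet-derived growth factor, a signal to pericytes and fibroblasts, and lies at chr15:79995874-80014977 on the minus strand with 8 merged exons. In culture it held 9.03, 3.65, 3.30, 3.39 and 0 normalized counts. Values in blood on day 1 ran from 427 through a median of 499 to 2225, blood on day 5 from 697 through 998 to 1192, and brain from 348 through 720 to 1672. Every recovered library was above every culture library, and the recovered groups overlapped each other. The log2 difference from culture was 7.34 ± 0.57 in blood on day 1 (limma adjusted p = 1.43e-09), 7.93 ± 0.57 in blood on day 5 (adjusted p = 4.4e-10) and 7.60 ± 0.57 in brain (adjusted p = 1.36e-10). Within batches it ran from 6.34 to 9.07 over these 3 comparisons. Brain did not pass against blood on day 5 (-0.34 ± 0.54, adjusted p = 0.653), and the sign differed between batches (0.30 and -0.98). Platelets are a known store of PDGF. In blood on day 1, the library with the highest platelet share (replicate 2, 6.02%) held the lowest Pdgfb value of its group, 427, and the library with the lowest share (replicate 6, 0.567%) held the highest, 2225. Both libraries are among the 4 standing apart. In brain, Pdgfb averaged 892 (SD 576, n = 6) with a platelet share of at most 0.019%. Endothelial marker shares were 0.001% to 0.002% in culture and 0.033% to 0.394% in blood on day 1. They were 0.028% to 0.138% in blood on day 5 and 0.046% to 0.357% in brain. The part of platelets, endothelial cells or other cells in the Pdgfb values of blood and brain was not tested.

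Hgf encodes hepatocyte growth factor, a motility and survival signal, and lies at chr5:16553495-16620152 on the plus strand with 19 merged exons. Culture held 9.03, 12.8, 6.60, 0 and 0 normalized counts. Blood on day 1 ran from 0 through a median of 81.4 to 360, blood on day 5 from 51.3 through 62.0 to 169, and brain from 30.7 through 146 to 263. All blood day 5 and brain libraries exceeded all culture libraries, while blood on day 1 replicate 6 held no read. Brain exceeded culture by 5.03 ± 1.09 (limma adjusted p = 0.000443; 2.92 in batch 1 and 7.65 in batch 2), blood on day 5 by 4.25 ± 1.09 (adjusted p = 0.004; 2.50 and 6.51) and blood on day 1 by 3.53 ± 1.09 (adjusted p = 0.0158; 3.32 and 4.24). The larger difference in batch 2 goes with the absence of any read in its 2 culture libraries. The blood calls were lost in batch 2 alone on day 1 (limma adjusted p = 0.118) and in batch 1 alone on day 5 (adjusted p = 0.0763). Among recovered groups no Hgf difference passed, the largest being 1.5 ± 1.03 for brain against blood on day 1 (adjusted p = 0.233). The highest blood day 1 library, replicate 3, also had the highest mast cell and basophil marker share of its group, 0.354%, and the part of such cells was not tested.

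Hgf was called higher than culture in each recovered group. Tgfb1 was called lower in brain alone, close to the threshold (limma adjusted p = 0.0474), and not in batch 2 alone. The 250 bases before their RefSeq start sites (GRCm38.p6, plus strand) are shown to set the 2 sequences side by side, with the match of a searched motif in capitals. The Hgf window is chr5:16553245-16553494 and the Tgfb1 window chr7:25686752-25687001.
Hgf: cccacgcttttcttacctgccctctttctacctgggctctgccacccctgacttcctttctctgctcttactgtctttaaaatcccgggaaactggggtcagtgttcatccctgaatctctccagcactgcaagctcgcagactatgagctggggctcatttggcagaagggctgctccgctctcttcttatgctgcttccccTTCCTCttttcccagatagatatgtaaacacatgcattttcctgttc
Tgfb1: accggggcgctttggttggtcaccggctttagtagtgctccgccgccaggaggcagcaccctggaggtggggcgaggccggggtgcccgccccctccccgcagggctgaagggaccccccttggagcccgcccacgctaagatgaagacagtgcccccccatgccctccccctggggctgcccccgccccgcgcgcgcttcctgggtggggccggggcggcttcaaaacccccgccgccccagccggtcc
The Hgf window is 50.8% G and C and the Tgfb1 window 75.2%, against a median of 52.4% over 32851 RefSeq promoter windows of the same length. Both strands were searched for CACGTG (an E-box), TGANTCA (AP-1), TTCNNNGAA (STAT), GAGGAA (the core of PU.1 sites), TATAAA (the TATA box), CCAAT (the CCAAT box) and TGACGTCA (CRE). The capitals in Hgf are GAGGAA read on the minus strand, 47 bases before the start site, and 23.3% of all windows hold this motif. The others are in 6.02% (CACGTG), 6.75% (TGANTCA), 7.02% (TTCNNNGAA), 12.4% (TATAAA), 33.8% (CCAAT) and 1.55% (TGACGTCA) of windows. None of the 7 motifs is in the Tgfb1 window. These matches are a description of letters only.

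Tgfb1 encodes transforming growth factor beta 1, a regulator of inflammation and scarring, and has 8 merged exons at chr7:25687002-25705077 on the plus strand. Culture held 1841, 1730, 1827, 1010 and 207 normalized counts. The day 1 blood libraries ran from 251 through a median of 395 to 1740, blood on day 5 from 241 through 486 to 820, and brain from 63.1 through 408 to 925. The 1740 is that of replicate 2, the library with the highest normalized total. Culture replicate 5 lay below every blood library and inside the brain range, and the other 4 culture libraries lay above every blood day 5 and brain library. Brain was lower than culture by a log2 difference of -1.63 ± 0.67 (limma adjusted p = 0.0474), close to the threshold. The call was lost in batch 2 alone (-0.08, adjusted p = 0.965), without brain replicate 2 (-1.10, adjusted p = 0.145), without any of culture replicates 1 to 4 (adjusted p = 0.0724 to 0.11), and when several other single libraries were left out. The blood groups were not called, at -1.0 ± 0.67 on day 1 (adjusted p = 0.27) and -1.17 ± 0.67 on day 5 (adjusted p = 0.203), and the sign was opposite in batch 2 (0.24 and 0.27). Without culture replicate 5 both passed, at -1.66 (limma adjusted p = 0.0473) and -1.83 (adjusted p = 0.0305), and without the 4 libraries standing apart they were -2.32 (adjusted p = 0.000197) and -1.78 (adjusted p = 0.000833).

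Osm encodes oncostatin M, an interleukin-6 family cytokine, and has 3 merged exons at chr11:4236420-4241026 on the plus strand. Culture held 2287, 2349, 2408, 2306 and 680 normalized counts. On day 1, blood ran from 307 through a median of 583 to 1626, blood on day 5 from 722 through 1311 to 1628, and brain from 557 through 857 to 2047. The 4 culture libraries other than replicate 5 were above every recovered library. Osm fell in blood on day 1 (-1.50 ± 0.44, limma adjusted p = 0.0114), with -2.18 in batch 1 and -0.64 in batch 2, and the call was lost in batch 2 alone (adjusted p = 0.619). Blood on day 5 did not pass (-0.60 ± 0.44, adjusted p = 0.334; -0.92 and 0.0353 without the 4 libraries standing apart), nor did brain (-1.03 ± 0.44, adjusted p = 0.0554). Brain passed without culture replicate 5 (-1.43, limma adjusted p = 0.00696), without the 4 libraries standing apart (-1.21, adjusted p = 0.00729), without brain replicate 6 (-1.28, adjusted p = 0.0172) and in batch 1 alone (-1.52, adjusted p = 0.0168; -0.37 in batch 2). It also passed with edgeR (-1.43, adjusted p = 0.0113), with DESeq2 (-1.04, adjusted p = 0.0428), with no batch term (limma, -1.04, adjusted p = 0.0471) and without blood on day 1 replicate 2 or 6 (adjusted p = 0.0444 and 0.0381).

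Hbegf encodes heparin-binding EGF-like growth factor, a membrane protein that is shed as a ligand, and has 5 merged exons at chr18:36504927-36515805 on the minus strand. Culture held 1215, 1795, 1936, 2385 and 2453 normalized counts. Blood on day 1 ran from 0 through a median of 45.5 to 140, blood on day 5 from 0 through 47.1 to 109, and brain from 87.8 through 355 to 400. Every recovered library was below every culture library. The log2 difference from culture was -6.09 ± 1.19 in blood on day 1 (limma adjusted p = 0.000353; -5.07 in batch 1 and -7.25 in batch 2) and -6.72 ± 1.19 in blood on day 5 (adjusted p = 0.000108; -6.45 and -7.12). In brain it was -2.83 ± 1.19 (limma adjusted p = 0.0528; -3.08 and -2.71), which did not pass. Brain passed with edgeR (-3.06, adjusted p = 0.0158), with DESeq2 (-2.73, adjusted p = 0.0102), with a pseudocount of 10 (limma, -2.81, adjusted p = 0.00134), with no batch term (-2.84, adjusted p = 0.0452) and with only the 2 groups compared (-2.92, adjusted p = 3.01e-05). It also passed without the 4 libraries standing apart (-3.01, limma adjusted p = 0.0313) and without any of blood on day 1 replicates 1 and 6 and blood on day 5 replicates 2, 3 and 5 (adjusted p = 0.0168 to 0.0481). Brain was above blood on day 5 by 3.89 ± 1.13 (limma adjusted p = 0.00628; 3.37 and 4.42), and above blood on day 1 by 3.26 ± 1.13 (adjusted p = 0.0191; 1.99 and 4.54). Both of these calls were lost with edgeR (2.32, adjusted p = 0.0556, and 2.05, adjusted p = 0.087), both were lost in each batch alone (adjusted p = 0.0533 and 0.0904 against day 5, 0.226 and 0.0797 against day 1), and the ranges overlap. The comparison with day 1 was also lost without blood on day 1 replicate 6, which held no Hbegf read (2.26, adjusted p = 0.0589), and without the 4 libraries standing apart (1.83, adjusted p = 0.165).

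Bdnf and Lif were at or near 0 in most libraries. Bdnf, a neurotrophin that supports neurons and synapses, has 9 merged exons at chr2:109674700-109727007 on the plus strand. No library of culture or blood on day 1 held a Bdnf read, and in blood on day 5 replicate 2 alone held any (4 reads). In brain, replicate 4 held 491 reads (268 normalized counts) and replicate 5 held 1159 (530), replicates 1 to 3 held 1 read each and replicate 6 none. A count of 3 reads corresponds to 1.15 to 9.29 normalized counts per library. Brain replicates 4 and 5 also had the highest endothelial marker shares of their group, 0.215% and 0.357%, and replicate 5 had the highest neuronal share, 0.025%, and the part of such cells was not tested. Lif, a cytokine related to Osm, has 5 merged exons at chr11:4257557-4272514 on the plus strand. It summed to 16 reads over the culture libraries, 44 in blood on day 1, 7 in blood on day 5 and 52 in brain, and 40 of the 44 reads came from replicate 5.

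Between the 2 blood times, 0 of the 7 tested members were called by limma, edgeR or DESeq2, against 0.105% of all tested genes by limma (0.0982% higher and 0.00655% lower). No member had ranges that did not overlap, against 1.12% of all tested genes. At an unadjusted p under 0.05 there was 1, Osm, higher on day 5 by 0.89 ± 0.42 (limma unadjusted p = 0.0433, adjusted p = 0.644). Brain against blood on day 5 gave 3 members, all higher in brain (Igf1, Grn and Hbegf), where 47.9% of all tested genes were called and 33.6% were higher. Ranges did not overlap for 2 of the 7, against 35.4% of all genes. Brain against blood on day 1 also gave 3 higher members, where 51.4% were called and 37.3% were higher. Ranges did not overlap for 2 of the 7 there, against 29.3% of all genes, and the median member difference was 1.5 against 0.77 over all tested genes. The brain comparisons share their brain libraries, and those against culture share the culture libraries.

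Per kilobase of merged exon, the mean normalized count orders the members within a group. In culture Grn led at 2217, followed by Osm at 883, Hbegf at 405 and Tgfb1 at 262, with Pdgfb (0.931), Hgf (0.791), Lif (0.647) and Igf1 (0.279) below 1 and Bdnf at 0. In brain Grn led at 24493, followed by Osm at 435, Igf1 at 247, Pdgfb at 214, Tgfb1 at 86.4, Hbegf at 61.7, Bdnf at 21.5 and Hgf at 20.4. Below Grn, the ranges of neighbours in that order overlapped, so the order of Osm, Igf1 and Pdgfb does not exceed the spread between libraries. In blood on day 5 the order was Grn (2358), Osm (544), Pdgfb (231) and Tgfb1 (98.5), with Hgf (10.9), Hbegf (9.51) and Igf1 (3.22) far below. On day 1 the blood order was Grn (3211), Osm (340), Pdgfb (186) and Tgfb1 (137).

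Genes with the most similar profile were named by the root mean square difference of centred log2 values over the 23 libraries, a description with no test. For Igf1 they included Vwa1 (1.34) and Tmem100 (1.42). For Grn they were Cst3 (0.36), Ctsb (0.51) and Ptov1 (0.51), of which Cst3 encodes cystatin C and Ctsb the lysosomal protease cathepsin B. For Pdgfb they were Kcnc1 (0.84), Ehd3 (0.88) and Rbpms (0.90). Hgf lay nearest to Map3k6 (0.96), Atg4c (1.07) and Raver2 (1.13), and those near Tgfb1 included Dgkz (0.66) and Lasp1 (0.66). Osm lay nearest to Psmd3 (0.62), Sh3bp2 (0.62) and Nfil3 (0.63). Hbegf lay nearest to Fggy (0.84), Asns (1.42) and Havcr2 (1.52), of which Havcr2 encodes the immune receptor TIM-3.

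Most receptors for these factors were higher in brain than in culture. Of 23 tested receptor genes, 8 rose and 2 fell in blood on day 1 against culture, 12 rose and 2 fell in blood on day 5, and 19 rose and none fell in brain, beside 18.1%, 19.6% and 37.5% of all tested genes called higher and 14.0%, 11.4% and 11.7% called lower. Without the 4 libraries standing apart, the day 1 blood count of receptors was 12 higher and 4 lower, as it was with DESeq2. The median log2 difference of the receptors was 1.61, 1.82 and 7.66, beside 0.04, 0.14 and 0.67 over all tested genes. Nrp1 (5.90), Lifr (5.39) and Igf1r (4.63) led the rises in blood on day 1 by log2 difference, and Ntrk2 (-6.44) and Tgfbr2 (-2.07) fell. Ntrk2, the receptor of Bdnf, averaged 1180 normalized counts in culture, 35.3 and 44.2 in the blood groups and 9949 in brain. The PDGF receptors had no read in culture, and in brain Pdgfrb averaged 10083 and Pdgfra 7983 normalized counts, at least 2509-fold and at least 1986-fold above the floor of 3 reads per library. Osmr, the receptor subunit for oncostatin M, averaged 4245 in brain and had no read in culture (at least 1056-fold). In brain against blood on day 5, 15 receptors rose and none fell, led by Pdgfra, Osmr and Pdgfrb. Pdgfrb is also in the mural marker list and Pdgfra in the fibroblast list, whose summed shares in brain were 0.015% to 0.139% and 0.306% to 1.15%, and the part of such cells was not tested.

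**Figure D4:**
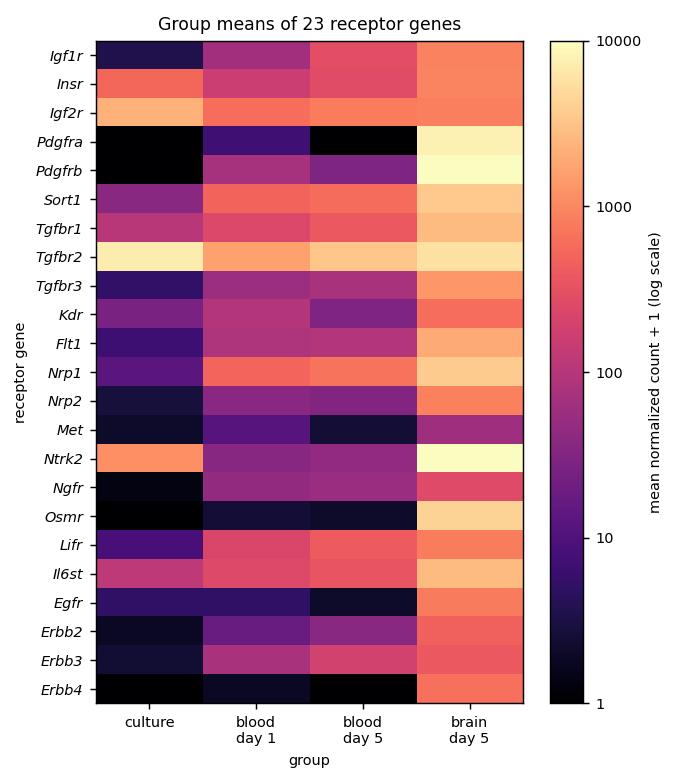
Mean normalized counts of the 23 receptor genes (rows) in the 4 groups (columns), on a logarithmic colour scale of value + 1. Pdgfra, Pdgfrb and Osmr have no read in culture and average 7983, 10083 and 4245 normalized counts in brain, and Ntrk2 is high in culture and brain and low in blood.

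Related ligands are other members of the same families. Of 23 tested, 3 rose and 3 fell in blood on day 1 and 4 rose and 4 fell in blood on day 5, while 15 rose and 1 fell in brain. Over all tested genes the shares called higher and lower were 18.1% and 14.0%, 19.6% and 11.4%, and 37.5% and 11.7% in these comparisons, so the blood counts of related ligands are near the background. Pdgfa rose in blood on day 1 (7.12 ± 0.97, limma adjusted p = 4.64e-06), as did Vegfc (6.05 ± 0.66, adjusted p = 2.03e-07), a lymphatic vessel factor. Vegfb fell there (-2.29 ± 0.48, adjusted p = 0.000672). In brain, Ptn, which encodes pleiotrophin, averaged 21556 normalized counts with no read in culture (at least 5363-fold), and Igf2, in the fibroblast list, rose by 12.79. Clcf1 fell in brain against culture (-2.13 ± 0.41, limma adjusted p = 0.000138) and against blood on day 5 (-2.17 ± 0.39).

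Another list holds genes that bind, release or inhibit the factors. Of 28 tested, 8 rose and 2 fell in blood on day 1, 9 rose and 1 fell in blood on day 5, and 20 rose and 1 fell in brain, beside 18.1%, 19.6% and 37.5% of all tested genes called higher and 14.0%, 11.4% and 11.7% called lower. Ltbp1, which holds latent Tgfb1 in the matrix, rose by 9.68 ± 0.84 in blood on day 1 (limma adjusted p = 7.56e-09) and 9.15 ± 0.84 in blood on day 5 (adjusted p = 1.55e-08), and was lower in brain than in blood on day 5 (-3.23 ± 0.80). Thbs1, which encodes a platelet and matrix protein that can open latent Tgfb1, rose by 7.80 ± 1.01 in blood on day 1. The day 1 blood libraries had a platelet share of 0.567% to 6.02%, and its part in these values was not tested. Lrrc32, which tethers latent Tgfb1 to the cell surface, fell in all 3 groups, by -2.64, -3.06 and -1.95 as log2 differences. Slpi, an inhibitor that protects progranulin from cleavage, rose by 8.37 ± 0.87 in blood on day 5 (adjusted p = 8.68e-08) and was lower in brain than in blood on day 5 (-5.25 ± 0.82, adjusted p = 1.09e-05). The neutrophil marker share in blood on day 5 was 0.372% to 3.51%, neutrophils are known to express Slpi, and their part was not tested. The IGF binding proteins Igfbp5, Igfbp2 and Igfbp7 led the rises in brain. Igfbp5 averaged 46974 normalized counts there against no read in culture (at least 11687-fold).

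**Figure D5:**
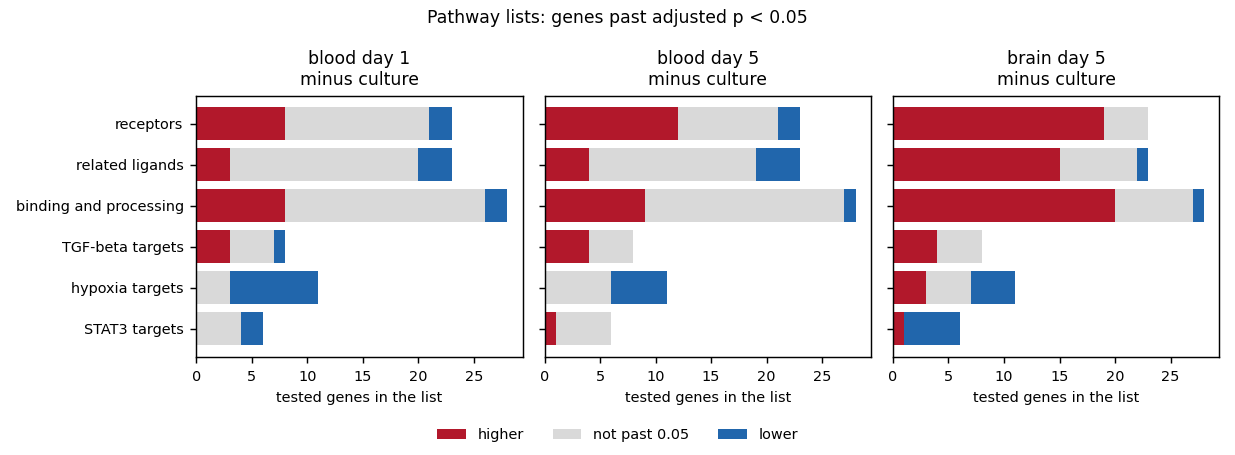
Number of tested genes of each list (stacked bars) that were higher, not past the threshold or lower than culture in each recovered group, by limma at an adjusted p under 0.05. Receptors are called higher in 19 of 23 tested genes in brain against culture, and hypoxia targets are lower in 8 of 11 in blood on day 1.

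Known target genes of these signals gave mixed counts, which stand beside 18.1% higher and 14.0% lower over all tested genes in blood on day 1, 19.6% and 11.4% in blood on day 5, and 37.5% and 11.7% in brain. Of 8 tested TGF-beta targets, 3 rose and 1 fell in blood on day 1, 4 rose and none fell in blood on day 5, and 4 rose and none fell in brain, with a median log2 difference of 1.05, 1.41 and 1.74. Without the 4 libraries standing apart, 7 of the 8 rose in brain. The 4 of 8 in brain is near the background. Ldlrad4, an inhibitor of TGF-beta signalling, rose in all 3 (5.87, 6.45 and 8.16), Itgae rose in blood (3.80 and 4.13), and Skil fell in blood on day 1 (-1.84). Of 11 tested hypoxia targets, to which Vegfa would belong, none rose and 8 fell in blood on day 1, none rose and 5 fell in blood on day 5, and 3 rose and 4 fell in brain. Egln3, a prolyl hydroxylase that senses oxygen, was lower in all 3 groups (-6.49, -6.07 and -5.18), and Bnip3, a mitophagy receptor, likewise (-4.60, -4.18 and -2.30). In brain against blood on day 5, 7 hypoxia targets rose and 1 fell, beside 33.6% higher and 14.3% lower over all tested genes. Slc2a1, the glucose transporter GLUT1, was among those that rose (2.54 ± 0.24, limma adjusted p = 7.98e-09). Of 6 STAT3 targets, none rose and 2 fell in blood on day 1, 1 rose and none fell in blood on day 5, and 1 rose and 5 fell in brain. The 2 that fell on day 1 were Fosl2 (-3.45) and Il4ra (-0.87, limma adjusted p = 0.0483), and 1 was left when any of culture replicates 1 to 3 or of blood on day 1 replicates 1 to 5 was left out, and with edgeR or DESeq2. Socs3, a feedback inhibitor of interleukin-6 family signals, was the 1 that rose in brain (2.64 ± 0.37, adjusted p = 2.48e-06), and Fosl2 (-2.11), Pim1 (-2.02) and Bcl3 (-1.28) fell. The counts of lists describe these genes and the lists were not tested as sets. Brain also had the lowest T cell and natural killer marker shares and the highest microglial share of the 4 groups. The part of the cell mix in these target gene values was not tested.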

How the data were processed

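Per the labels' protocols, mRNA of 23 samples was captured with poly-T and sequenced in paired ends of 150 bp. The submitters' processing notes name fastp, HISAT2 2.0.5 and the mm10 genome. The tool that counted reads, its gene models and its use of strand are not given in the sources read. The deposited signal values, called normalized counts by the authors, are read counts divided by 1 factor per library. All values (100%) were whole multiples of 1 read within 0.1 read, so whole reads were recovered for the count tests.

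Genes with at least 10 normalized counts in at least 5 libraries (15268 of 19945) were tested with limma 3.58.1 in R 4.3.3 (lmFit, eBayes with trend and robust) on log2(value + 1), over all 23 libraries with group and batch. P-values are two-sided and Benjamini-Hochberg adjusted, and the threshold was 0.05. The script was tested on simulated data. edgeR 4.0.16 on TMM scaling and DESeq2 1.42.0 were run on the recovered reads as alternatives, besides other pseudocounts, filters, scalings, batch choices and libraries left out. A floor of 3 reads was used for a group with no read. Coordinates are from GENCODE M21 (mm10) and promoter windows from RefSeq (GRCm38.p6). Windows of chr18, where Hbegf lies, were left out, and 6 of the 9 members had an entry among the rest. From each list of related genes, at most the 3 largest rises and 3 largest falls past the threshold per comparison were named, and for each tested member the 3 nearest genes, of which some are not reported here. The members and lists were chosen with earlier results of these data known. Vegfa is not analysed here.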

Additional observations from a re-analysis of the deposited data

Results flagged for a closer look

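In 8 of the 29 group-by-gene sets checked, 1 library stood apart from the rest of its group by Dixon's criterion. That criterion flags about 1 in 20 sets by chance where values are normally distributed. It was applied to normalized counts without a log, so this rate may not hold here. In blood on day 1, Igf1 was 307 normalized counts in replicate 2 against 2.99 to 42.8 in the others, Pdgfb was 2225 in replicate 6 against 427 to 572, and Hgf was 360 in replicate 3 against 0 to 99.5. Lif reached 19.7 in replicate 5 of that group, where the others held at most 4.69. In blood on day 5, Hgf was 169 in replicate 6 against 51.3 to 73.2. Culture replicate 4 held 17293 normalized counts of Grn against 4143 to 7383, and culture replicate 5 held 680 of Osm, the lowest of its group, against 2287 to 2408. In brain, Osm was 2047 in replicate 6 against 557 to 1047.

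The change from culture differed between brain and blood on day 5, by limma's test of that difference, for 3 members: Igf1 by 6.29 (adjusted p = 2.95e-06), Grn by 3.40 (adjusted p = 8.11e-08) and Hbegf by 3.89 (adjusted p = 0.00628) on the log2 scale. Culture cancels in this difference, so it is the direct comparison of brain with blood on day 5. Brain was above blood in 6 of 6 libraries for Igf1 and Grn, and the Hbegf ranges overlap.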

How the results depend on the processing

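The 20 called member results gave 715 values under the alternatives, of which 677 kept their call, 38 lost it and 0 changed sign. Some of these values leave out a library of neither compared group, where the log2 difference hardly moves. The counts therefore overstate how far the calls were tried. The 22 uncalled results gave 791, of which 732 stayed uncalled, 29 gained a call and 30 changed sign. Counts of called members stayed within 1.5 times the reported count, except that the 5 in blood on day 1 against culture became 3 with only the 2 groups compared, 3 with the closest libraries averaged (culture replicates 1 to 3 as 1 library, brain replicates 1 and 3 as 1) and 2 in batch 2 alone, where fewer libraries enter. Leaving out each library in turn gave 5 to 6 called members in blood on day 1, 4 to 6 in blood on day 5 and 4 to 7 in brain against culture, 0 between the blood times, 3 in brain against blood on day 5 and 2 to 3 in brain against blood on day 1. DESeq2 gave no adjusted p for Igf1. In blood on day 1 against culture, 7 related ligands rose with DESeq2 in place of 3, and in batch 2 alone 1 TGF-beta target was called in place of 4. Scaling to equal library totals moved the median log2 difference of all genes by 0.10, 0.36 and -0.04 in blood on day 1, blood on day 5 and brain against culture, and by 0.26, -0.40 and -0.15 in day 5 against day 1 blood, brain against blood on day 5 and brain against blood on day 1.

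With the replicate number as a block, the counts were 5, 4 and 6 against culture (blood on day 1, blood on day 5, brain), 0 between the blood times and 3 in each brain against blood comparison, the sixth being Osm in brain (-1.22, adjusted p = 0.0028). The numbers were not shown to pair the libraries: same-numbered deviations correlated from -0.104 to 0.189 (33 pairs) and other pairs from -0.167 to 0.120 (66 pairs), and a library correlated best with its own number in 35 of 66 checks, each among the 2 or 3 libraries of another group and the same batch, where an even pick gives 23. This is a hint of pairing from the data, not from the design.

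Values that changed sign were all uncalled, and the cause was not tested. Against culture, batch 2 alone gave Grn -0.72 and Tgfb1 0.24 in blood on day 1, and Grn -0.997 and Tgfb1 0.27 in blood on day 5, where Grn was -0.21 with the closest libraries averaged. Between the blood times, Igf1 was -0.73 with edgeR, -0.57 in batch 1, and -0.089 to 1.21 with 1 library left out, the values below 0 without blood on day 1 replicate 6 and replicate 3 (-0.0021). Tgfb1 was 0.088 with equal totals, 0.029 in batch 2, 0.54 without the 4 libraries standing apart, and -0.39 to 0.20 with 1 library left out, 0.063 and 0.031 among them without blood on day 1 replicate 6 and blood on day 5 replicate 2. Hgf was -0.31 with edgeR, -0.27 with DESeq2, -0.82 in batch 1, -0.79 without those 4 libraries and -0.34 to 1.28 with 1 library left out, the lowest without blood on day 1 replicate 6. Hbegf was 0.12 in batch 2 and -1.63 to 0.24 with 1 library left out, the highest without blood on day 5 replicate 5. In brain against blood on day 5, Pdgfb was 0.30 in batch 1, and Tgfb1 was 0.0074 without those 4 libraries and -0.78 to 0.047 with 1 library left out, the highest without brain replicate 2. In brain against blood on day 1, Pdgfb was -0.24 with edgeR and -0.52 in batch 2, Tgfb1 0.54 without those 4 libraries, Hgf -0.40 in batch 1 and Osm -0.060 with edgeR. The lowest counts, in Igf1, Hgf and Pdgfb of culture, limit the size of their log2 differences.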
